A study of Mus musculus with 7 samples.

Results

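Car1, Car2, Cldn13, Atp7b, Atp1b2, Prss50, Aldh1a7 and Epdr1 are 8 genes, of 50435 in the deposited table, selected on their DT and PBS levels: large falls after diphtheria toxin (DT), leaving aside erythroid transcription factors and blood group genes. RNA was taken from cells of mouse bone marrow gated as sinusoidal endothelium, the cells that line the wide venous vessels of the marrow. The DT group (3 samples) received 200 ng of toxin and the PBS group (4 samples) the carrier alone, each by intraperitoneal injection 1 day before harvest. All mice were irradiated wild-type recipients that had carried Zbtb46dtr bone marrow for 8 weeks. In such marrow the toxin receptor is driven by Zbtb46, a gene known from classical dendritic cells and also from endothelial cells and erythroid progenitors, and recipient cells that survived irradiation lack the construct. The gate took CD31+ Sca1- cells negative for CD45, Ter119, Gr1 and CD11b. The age of the mice is not given in the sources used here. Because the values of DT against PBS chose the 8 genes, their differences between these groups are described without a test.

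Red cell precursors pass from progenitors, which divide and carry few blood-specific proteins, to erythroblasts that fill with hemoglobin and gain the Ter119 antigen, and then lose their nucleus. Carbonic anhydrases interconvert carbon dioxide and bicarbonate, which lets red cells carry carbon dioxide from tissue to lung, and Car1 and Car2 encode the main cytosolic forms of the lineage. Car2 is also known from osteoclasts, where it supplies acid. The other 6 genes have no common function: a tight junction protein, a copper pump, a subunit of the sodium pump, a protease-like protein, an aldehyde dehydrogenase and a lysosomal protein.

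The unit is RPM (reads per 1000000 in the library), and values include an offset of 0.0001 that stands for no reads. The most frequent low value, taken as 1 read, puts the libraries at 40400000 to 51200000 reads in DT and 33200000 to 39100000 reads in PBS, and 3 reads equal 0.0585 to 0.0742 RPM in DT and 0.0767 to 0.0904 RPM in PBS. The label of the sort was not matched by its markers. Of 12 endothelial genes 3 reached the level for testing, and their sum lay at 10.2 to 18.7 RPM in DT and 1.45 to 9.35 RPM in PBS, with Cdh5, the endothelial cadherin, at 3.39, 1.81 and 1.09 RPM in DT and 2.68, 0.511, 0.0001 and 0.0518 RPM in PBS. Cdh5 was not called (limma, adjusted p = 0.169), except without PBS 1 (0.0171) or with sample weights (0.0323), where it was higher. Of the 3, Flt1, a receptor for vascular growth factor named after its values were seen, was called higher, at 2.08 ± 0.688 RPM in DT and 0.206 ± 0.283 RPM in PBS with no overlap (limma, adjusted p = 0.00956). Esam, an adhesion molecule, was at 2.81 ± 1.96 RPM in DT and 0.813 ± 1.16 RPM in PBS and was not called (limma, adjusted p = 0.0995), except without PBS 2 (0.023) or with sample weights (0.0382). The results concern total RNA of each sort, in which fewer cells of a type and less RNA per cell cannot be told apart.

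All 8 genes were lower in every DT library than in any PBS library. The same held for 24.7% of the 14100 genes tested, those with a mean of at least 1 RPM, and the choice of the 8 fixes this count, so nothing is read from it. The ratio of group means ran from 17.5-fold lower in DT for Car2 to 486-fold lower for Prss50, with a median of 33.6-fold. On the log2(RPM + 1) scale used for testing, which understates differences of low genes, the median difference was -3.70, against -0.23 over all tested genes. Ordered by that difference the 8 stood among the 21 lowest genes. The other 13 there included 4 with no overlap between groups and 9 with overlap. Epdr1 at -3.43 was the last of the 8, and the carboxylesterase gene Ces2g at -3.42, with no overlap either, came next and was not listed.

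**Figure D1:**
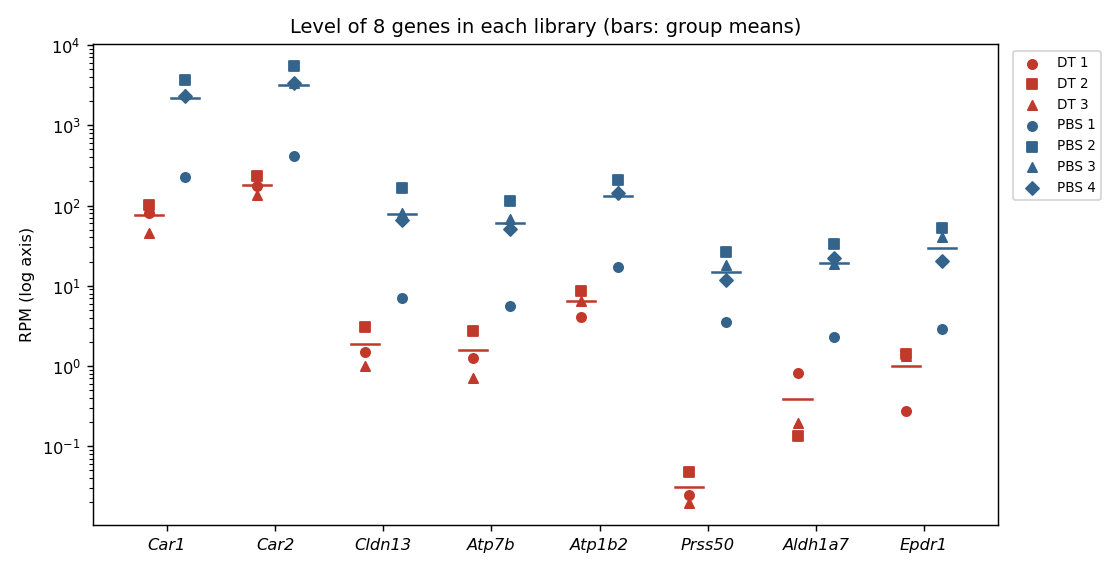
Level of the 8 genes in each library in RPM on a log axis, DT (red) left of PBS (blue), with 1 symbol per library and a bar at each group mean. Each DT point lies below all PBS points of its gene, PBS 1 is the lowest PBS library throughout, and Prss50 in DT stands lowest of all at 0.0196 to 0.0477 RPM.

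Car1 and Car2 carried most of the signal. Car1, on the minus strand at chr3:14766216-14808368 (mm10, GENCODE vM21), was at 79.9, 102.7 and 45.1 RPM in DT and at 229.9, 3651, 2420.2 and 2338 RPM in PBS. The groups did not overlap, but PBS 1 was only 2.24 times the highest DT library, and the other 3 PBS libraries lay far above it. The group means were 75.9 ± 29.0 RPM in DT (SD, n = 3) and 2159.9 ± 1419.9 RPM in PBS (SD, n = 4), a level 28.5-fold lower in DT. Car2, on the plus strand at chr3:14886273-14900770, was at 176.9, 230.4 and 134 RPM in DT and at 418, 5499.9, 3314 and 3405 RPM in PBS. PBS 1 was again the low PBS library, at 1.81 times the highest DT library, and the means of 180.5 ± 48.2 RPM in DT and 3159 ± 2088 RPM in PBS put Car2 17.5-fold lower in DT. Together the pair made up 0.0257%, 0.0333% and 0.0179% of the reads in DT and 0.0648%, 0.915%, 0.573% and 0.574% in PBS.

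Per kilobase of exon, Car1 was among the most abundant protein-coding genes of PBS. Its rank among 21367 such genes was 595, 432 and 1105 in DT and 163, 3, 6 and 6 in PBS. Car2 ranked 515, 351 and 697 in DT and 173, 7, 7 and 9 in PBS. Even in DT both stayed well above most genes of the genome. The balance of the 2 enzymes also differed: the level of Car2 per kilobase relative to that of Car1 was 1.14, 1.16 and 1.53 in DT and 0.937, 0.776, 0.706 and 0.750 in PBS, with no overlap. Per kilobase, Car1 was thus the higher of the pair in every PBS library and Car2 in every DT library. In RPM, without division by exon length (1248 bases for Car1 and 2422 for Car2), Car2 was the higher in every library of both groups. The levels of both genes chose them, so nothing is read from the lack of overlap. Of the read-length windows of 50 bases in Car1 transcripts, 13.4% also occur in its pseudogene Gm5843, which was at most 0.617 RPM in any library, and Car2 shares none with another gene.

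Cldn13 encodes a claudin, one of the proteins that seal tight junctions between epithelial cells, and this member is known from blood-forming tissue of the mouse. It lies at chr5:134914249-134915526 on the minus strand and was at 1.51, 3.07 and 0.995 RPM in DT and at 7.02, 164.6, 79.7 and 65.7 RPM in PBS. The groups did not overlap, and PBS 1, the lowest PBS library, was at 2.29 times the highest DT library. The mean was 42.7-fold lower in DT, at 1.86 ± 1.08 RPM, against 79.3 ± 65.04 RPM in PBS.

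Atp7b encodes a pump that moves copper out of the cytosol and is mutated in Wilson disease. It lies at chr8:21992785-22060305 on the minus strand and was at 1.26, 2.76 and 0.703 RPM in DT and at 5.54, 115.3, 68.8 and 51.4 RPM in PBS, a mean 38.3-fold lower in DT. Its libraries fell into the same order as those of Cldn13. The bases before its RefSeq start are shown as the 1 window of 4 that held letters searched for. Windows from 250 bases before to 50 bases after the RefSeq start were taken from RefSeq (GRCm38.p6) for Atp7b, Prss50, Aldh1a7 and Epdr1, and both strands were searched. AGATAA, 1 form of the letters bound by GATA factors, occurred in 0 of the 4 and in 12.7% of 27025 genes with such windows. Other forms were not searched for or marked, among them AGATAG, which the Atp7b window holds on the opposite strand as ctatct. CCNCNCCC, letters bound by Klf1 and related factors, occurred in Atp7b and in 51.9% of the genes, so a match is common. Capitals mark the 3 matches, of which the nearest begins 15 bases before the RefSeq start, in the 250 bases at chr8:22060075-22060324, minus strand. GENCODE starts the gene further upstream than RefSeq, so 231 of these 250 bases lie inside the gene as placed above. These are descriptions of letters and not binding sites.
Atp7b: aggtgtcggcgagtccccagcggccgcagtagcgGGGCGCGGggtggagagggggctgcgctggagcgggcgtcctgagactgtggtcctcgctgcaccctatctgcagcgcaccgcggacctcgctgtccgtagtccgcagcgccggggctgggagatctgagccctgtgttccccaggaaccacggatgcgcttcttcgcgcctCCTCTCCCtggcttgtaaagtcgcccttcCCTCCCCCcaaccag

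Atp1b2 encodes a beta subunit of the sodium pump, which exchanges sodium for potassium across the cell membrane. It lies at chr11:69599736-69605942 on the minus strand and was at 4.13, 8.68 and 6.48 RPM in DT and at 16.9, 208.6, 152 and 144 RPM in PBS. The mean was 20.3-fold lower in DT, at 6.43 ± 2.27 RPM, against 130.4 ± 80.9 RPM in PBS. Epdr1, named for the fish protein ependymin and encoding a lysosomal protein, lies at chr13:19591706-19619927 on the minus strand and was at 0.272, 1.43 and 1.33 RPM in DT and at 2.89, 53.2, 40.9 and 20.1 RPM in PBS. Here DT 1 was the lowest library and PBS 4 stood well below PBS 3. The mean of Epdr1 was 28.99-fold lower in DT.

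Aldh1a7 encodes a rodent aldehyde dehydrogenase close to Aldh1a1, an enzyme that makes retinoic acid. It lies at chr19:20692953-20727562 on the minus strand and was at 0.825, 0.133 and 0.193 RPM in DT and at 2.29, 33.2, 18.6 and 21.9 RPM in PBS. DT 1 was the highest DT library, unlike in the other 7 genes, where it was DT 2. The 33.3, 5.58 and 9.89 reads that these DT values correspond to are not whole numbers. The coding sequences of Aldh1a7 and Aldh1a1 are equally long and identical at 91.6% of 1503 bases, and 7.49% of the windows of 50 bases in Aldh1a7 transcripts also occur in Aldh1a1. The longest run they share, 100 bases in capitals with 15 bases on either side, holds stretches of 50 bases that fit both genes equally.
Aldh1a7: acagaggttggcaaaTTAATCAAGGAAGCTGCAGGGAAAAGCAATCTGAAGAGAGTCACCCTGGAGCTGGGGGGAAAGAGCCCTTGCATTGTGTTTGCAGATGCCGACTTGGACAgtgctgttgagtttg
Aldh1a1: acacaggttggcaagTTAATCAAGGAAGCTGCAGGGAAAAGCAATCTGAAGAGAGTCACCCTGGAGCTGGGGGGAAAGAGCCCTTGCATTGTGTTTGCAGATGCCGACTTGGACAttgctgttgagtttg

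Prss50 encodes a protein of the trypsin family that is known mainly from testis. It lies at chr9:110857967-110864629 on the plus strand and was at 0.0248, 0.0477 and 0.0196 RPM in DT and at 3.52, 26.2, 18.3 and 11.7 RPM in PBS. These values are 1, 2 and 1 reads in DT, under the level of 3 reads, and 117, 1025, 693 and 454 reads in PBS. Pooled over libraries the rate was 514-fold lower in DT, with an exact 95% interval of 200.4 to 1887 that covers counting error only. Among all 50435 genes, Prss50 was the 1 gene with at most 3 reads in every DT library and at least 100 in every PBS library, and 20 genes showed the reverse, a comparison chosen after the values were seen. That Prss50 was the only one depended on the cutoff. With at least 20 reads in place of 100, 6 genes qualified, Prss50 among them, and 99 showed the reverse. No window of 50 bases in its transcripts occurs in another gene.

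Within PBS the 8 genes shared an order of libraries. PBS 1 was the lowest and PBS 2 the highest PBS library for 8 of 8 genes, an order also found in 26.5% of the 8829 tested genes with a PBS mean of at least 10 RPM. Relative to the PBS mean of each gene, the 8 lay at 0.0885 to 0.236 in PBS 1, at 1.6 to 2.08 in PBS 2, at 0.977 to 1.4 in PBS 3 and at 0.686 to 1.15 in PBS 4. The highest PBS library exceeded the lowest by 7.43-fold for Prss50 up to 23.5-fold for Cldn13. Over the 8829 genes the median of that ratio was 1.64, and 135 of them, or 1.53%, reached 7.43. Over all 14100 tested genes, which include those of few reads, the median was 1.90 and 1428, or 10.1%, reached it. In DT the highest library exceeded the lowest by 1.72-fold for Car2 to 6.20-fold for Aldh1a7.

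Prss50 stood apart from the other 7 genes in its ratio to the DT mean, which rests on 1, 2 and 1 reads. For those 7, PBS 1 lay at 2.32 to 5.97 times the DT mean, whereas Prss50 in PBS 1 lay at 115 times its DT mean. In the other PBS libraries Prss50 was at 383 to 853 times the DT mean, and the other 7 genes at 18.4 (Car2) to 88.6 (Cldn13) times. All these ratios of Prss50 share the same DT mean of few reads, so they are not separate observations. The PBS level of Prss50 was not high, and its PBS mean of 14.9 RPM was the lowest of the 8. Relative to the mean of the other PBS libraries, PBS 1 was at 0.188 for Prss50 and at 0.0679 (Cldn13) to 0.103 (Car2) for the other 7. Without PBS 1 the PBS mean exceeded the DT mean 36.9-fold for Car1, 22.6-fold for Car2 and 610.2-fold for Prss50, and the median log2 difference of the 8 was -4.51.

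**Figure D2:**
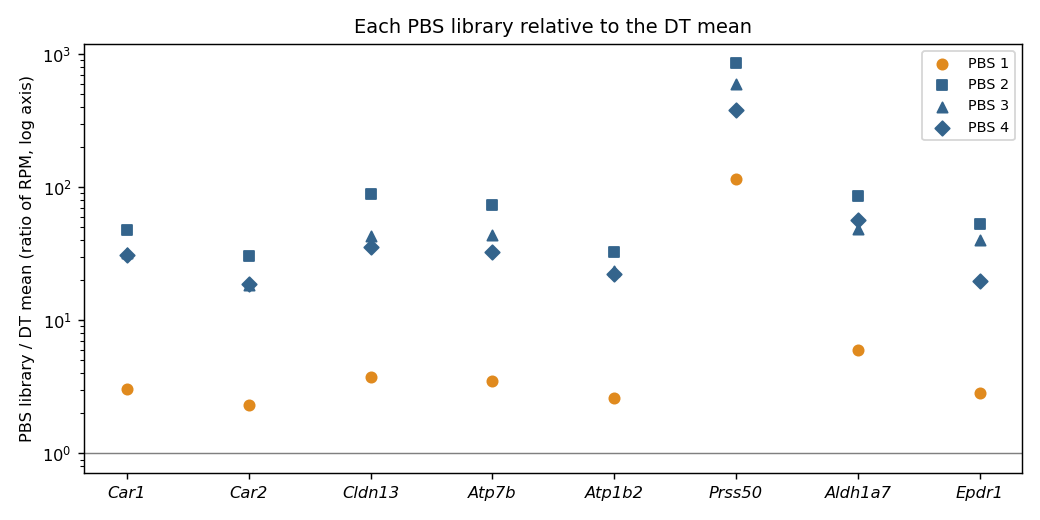
Ratio of each PBS library to the DT mean (RPM, log axis) for the 8 genes, with PBS 1 in orange and PBS 2 to 4 in blue, and a line at equality. PBS 1 lies at 2.32 to 5.97 for 7 genes and at 115 for Prss50.

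The genes whose libraries followed the 8 most closely included known erythroid genes. Likeness was the root mean square difference from the mean profile of the 8, on the log2 scale and centred over 7 libraries, so it takes in the low DT level that chose the 8. The closest 10 of 11190 candidates, at 0.25 to 0.42, were Ces2g, Klf1, Kel, Mt2, Tspo2, Rhd, Aqp1, Col5a1, Gata1 and Mboat2. Klf1 and Gata1 are transcription factors of the lineage, Rhd and Kel carry blood group antigens, Aqp1 is a water channel of red cells and Tspo2 is known from erythroblasts. Ces2g came closest, at 11.999, 11.5 and 8.88 RPM in DT and 22.2, 294, 200.9 and 177.7 RPM in PBS. Klf1, at 1.36, 5.26 and 1.46 RPM in DT and 5.15, 115, 73.1 and 61.2 RPM in PBS, overlapped between the groups.

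Lists of erythroid genes that hold none of the 8 were set beside them. Like the lists of relatives below, they were drawn up with earlier results of these data known. Their shares of called genes are therefore not independent of the contrast and serve as description. Of 24 progenitor genes, 18 fell in DT and 1 rose at an adjusted p under 0.05 (limma, Benjamini-Hochberg over all tested genes), or 75%, where 18.6% of all tested genes were called lower and 13.4% higher. With libraries scaled by median ratios, which brought the median of all genes to -0.02, 64.2% of all calls were higher, against 41.9% with the values as deposited. Their median log2 difference was -2.40. Rhd fell 41.0-fold, to 3.96 ± 0.589 RPM in DT, against 162 ± 114 RPM in PBS (limma, adjusted p = 0.00142). Myb, a factor of dividing progenitors, fell 2.92-fold (adjusted p = 0.00014, limma), Blvrb, which reduces biliverdin, 5.41-fold and Mns1 4.27-fold. The count was 10 without the filter on low values and 9 with limma voom on estimated reads.
Of 18 late genes 3 fell, or 16.7%, near the 18.6% of all tested genes, and 4 rose, where 13.4% of all were called higher. The median of the late list was -0.47. Trim10 fell 20.9-fold to 0.365 ± 0.357 RPM in DT, against 7.62 ± 4.41 RPM in PBS (limma, adjusted p = 0.00948), and Tspo2, whose groups overlapped, fell 26.2-fold. Tspo2 missed the threshold without DT 3 (limma, adjusted p = 0.0582). Alas2, the heme enzyme of the lineage, rose 4.79-fold to 34.96 ± 4.10 RPM in DT, against 7.30 ± 3.90 RPM in PBS (limma, adjusted p = 0.00261). The globin Hbb-bs rose 3.10-fold, so the late list held genes of both directions. Without PBS 1, 8 late genes fell and without DT 3, 2. With voom 0 fell, while 6 had an unadjusted p under 0.05 by limma. The sum of the progenitor list was 575, 576 and 540.1 RPM in DT and 1040.1, 3648, 2462 and 2249 RPM in PBS, so it too was lowest in PBS 1 and highest in PBS 2.

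**Figure D3:**
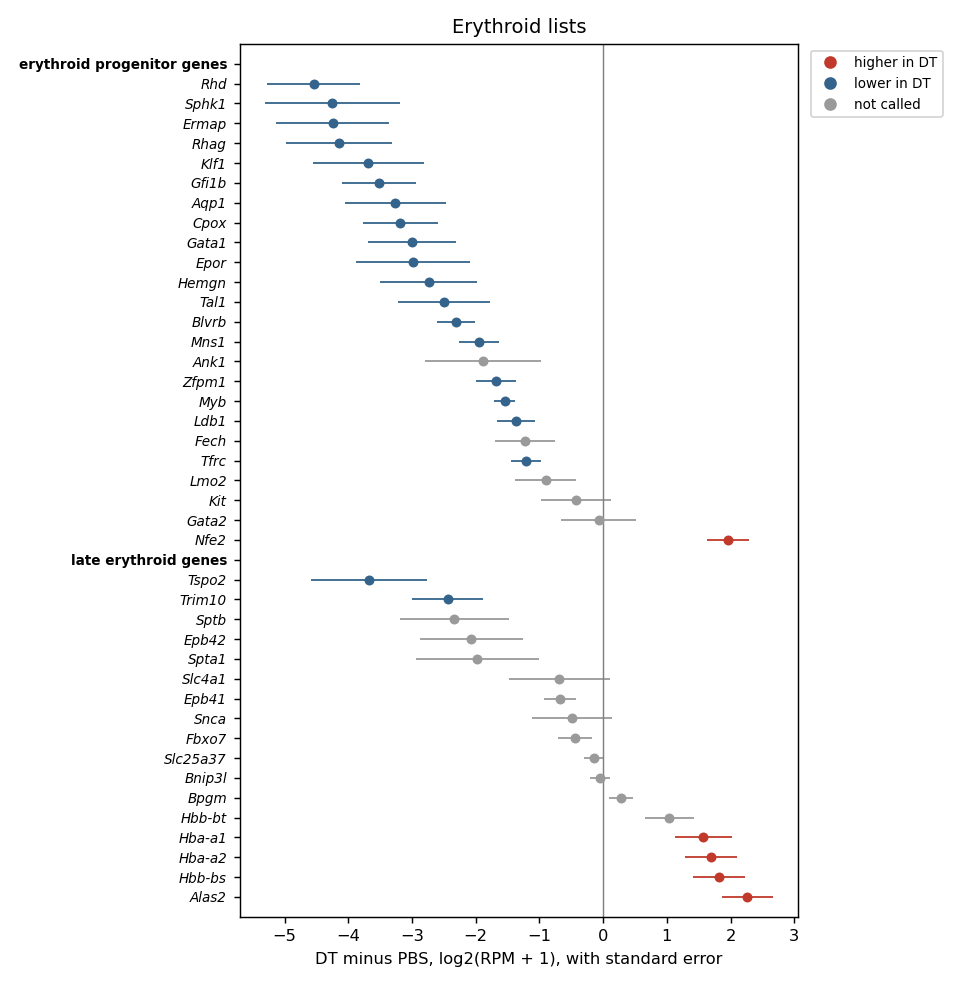
Difference of DT minus PBS on the log2(RPM + 1) scale with its standard error for genes of the 2 erythroid lists, red higher, blue lower and grey not called by limma. Progenitor genes lie mostly left of 0, with 18 of 24 called lower, while 4 late genes, among them Alas2 and Hbb-bs, lie to the right as called higher.

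Relatives of the 8 genes were called in both directions or not at all, read against the 18.6% of all tested genes called lower and 13.4% called higher. For Epdr1 no list of relatives was drawn up. Apart from Car1 and Car2, 5 carbonic anhydrases were tested: Car9, a membrane form induced by low oxygen, rose 2.82-fold (limma, adjusted p = 0.0197), and 0 fell, also at an unadjusted p under 0.05 and with voom. Car9 lost its call without DT 2 (adjusted p = 0.0645) or DT 3 (0.0944). Car13, a cytosolic form, was at 3.59, 4.45 and 6.93 RPM in DT and 8.62, 13.3, 4.72 and 13.04 RPM in PBS (limma, adjusted p = 0.122), and was called lower without PBS 3 (0.038). Car3, abundant in muscle and fat, was at 3.49, 6.56 and 98.6 RPM in DT and 9.67, 5.57, 13.4 and 18.8 RPM in PBS, and DT 3 alone decided the sign of its difference, which was -1.03 without it and 0.34 with it. Car7 and Car12 were at 1.99 ± 0.582 and 2.88 ± 2.77 RPM in DT and at 1.499 ± 1.51 and 0.603 ± 0.618 RPM in PBS. Car4, Car6 and Car10 held no reads in any library. Per kilobase, Car1 and Car2 averaged 60.8 and 74.5 RPM in DT and 1731 and 1304 RPM in PBS, whereas the highest mean among these 5 was 12.6 RPM per kilobase, for Car3 in DT.

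Of 9 tested carriers of bicarbonate, protons, water or gases 4 fell (44.4%, against 18.6% of all tested genes) and 1 rose, with a median log2 difference of -0.69. Slc4a1, the bicarbonate exchanger of red cells, was at 1.63, 3.28 and 5.56 RPM in DT and 0.181, 15.5, 8.91 and 9.83 RPM in PBS and was not called (limma, adjusted p = 0.536), but was called lower without PBS 1 (0.011). Rhag, the Rh-associated gas channel, fell 30.9-fold (limma, adjusted p = 0.00475), Aqp1 16.6-fold (adjusted p = 0.0121, limma) and Slc16a1, a lactate carrier, 3.84-fold (limma, adjusted p = 8.21e-05), while Slc26a6 rose 3.97-fold. The call of Slc26a6 was lost without DT 2, DT 3 or PBS 3, and 2 of the 9 fell with voom, under which Rhag (0.0809) and Aqp1 (0.0965) missed the threshold. Rhag and Aqp1 are also among the 18 progenitor genes that fell.

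Other genes of the sodium pump differed in direction. The beta subunit gene Atp1b1 fell 2.84-fold to 75.0 ± 16.2 RPM in DT, against 213 ± 40.8 RPM in PBS (limma, adjusted p = 0.000532), and Atp1b3, also a beta subunit gene, 1.82-fold. Fxyd5, a small regulator of the pump, rose 7.68-fold to 304 ± 30.97 RPM in DT, against 39.6 ± 3.41 RPM in PBS (adjusted p = 1.62e-06, limma). Per kilobase, Atp1b2 averaged 1.57 RPM in DT and 31.9 RPM in PBS, where Atp1b1 averaged 24.3 RPM in DT and 69.2 RPM in PBS.

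Copper handling genes beside Atp7b showed 4 falls and 1 rise among 15 tested, or 26.7% lower, near the 18.6% of all tested genes, with a median of -0.44. The metallothionein Mt2, which binds copper and zinc, fell 29.6-fold (limma, adjusted p = 0.0153), but its groups overlapped, with 0.480, 1.93 and 0.835 RPM in DT and 1.86, 54.3, 37.2 and 34.97 RPM in PBS. Mt2 missed the threshold without DT 1 (0.0582) or DT 3 (0.0554). Sod1, the copper-zinc superoxide dismutase, fell 2.16-fold and Cox17, a copper chaperone whose call was lost under median-ratio scaling and without DT 1, DT 2, DT 3 or PBS 3, 1.56-fold, and Slc31a2, a copper transporter, rose 7.53-fold (adjusted p = 0.000176, limma). The related pump Atp7a was at 12.99 ± 3.41 RPM in DT and 5.52 ± 3.63 RPM in PBS (limma, adjusted p = 0.0700), and was called higher without PBS 1 (0.0222). The count of copper genes that fell was 1 without DT 1 or DT 3 and 2 without DT 2 or PBS 3, and 6 without PBS 1.

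Of 10 other tight junction genes 3 rose and 1 fell, where 13.4% of all tested genes were called higher and 18.6% lower, with a median of 0.82. Cldn15 rose 21.7-fold to 50.6 ± 9.44 RPM in DT, against 2.33 ± 2.51 RPM in PBS (limma, adjusted p = 0.000132), Cldn1 17.6-fold and Marveld1, a membrane protein named for a domain of junction proteins, 8.31-fold. Cldn10 fell 3.05-fold, a call lost on leaving out DT 1, DT 2, DT 3, PBS 2 or PBS 4 and under median-ratio scaling. Of 10 retinoid and aldehyde genes beside Aldh1a7, Aldh2, Rdh12, Dhrs3 and Dhrs9 rose, 2.02-fold to 34.5-fold, and Aldh1a1 fell, 4 and 1 of 10 against the same shares. Aldh1a1 was at 0.413, 2.13 and 3.26 RPM in DT and 2.71, 48.6, 22.3 and 21.04 RPM in PBS (limma, adjusted p = 0.0225), a call lost without DT 1, DT 2, PBS 3 or PBS 4 (0.0559 to 0.0918). Aldh1b1 was at 32.5 ± 8.59 RPM in DT and 30.2 ± 12.3 RPM in PBS, and Aldh1l1 at 1.89 ± 1.24 RPM in DT and 1.22 ± 1.24 RPM in PBS. Of 4 other tested Prss genes 0 fell, at an unadjusted p under 0.05 and with voom too, and 3 rose, too few genes to set against the 13.4%: Prss57, a neutrophil protease (8.01-fold), Prss34, a basophil protease (10.6-fold), and Prss16 (4.36-fold). Without DT 1, 1 of these was called, Prss34 losing its call (0.0632), and Prss16 lost its call without DT 1, DT 2, DT 3, PBS 2 or PBS 4 (0.0517 to 0.0965).

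**Figure D4:**
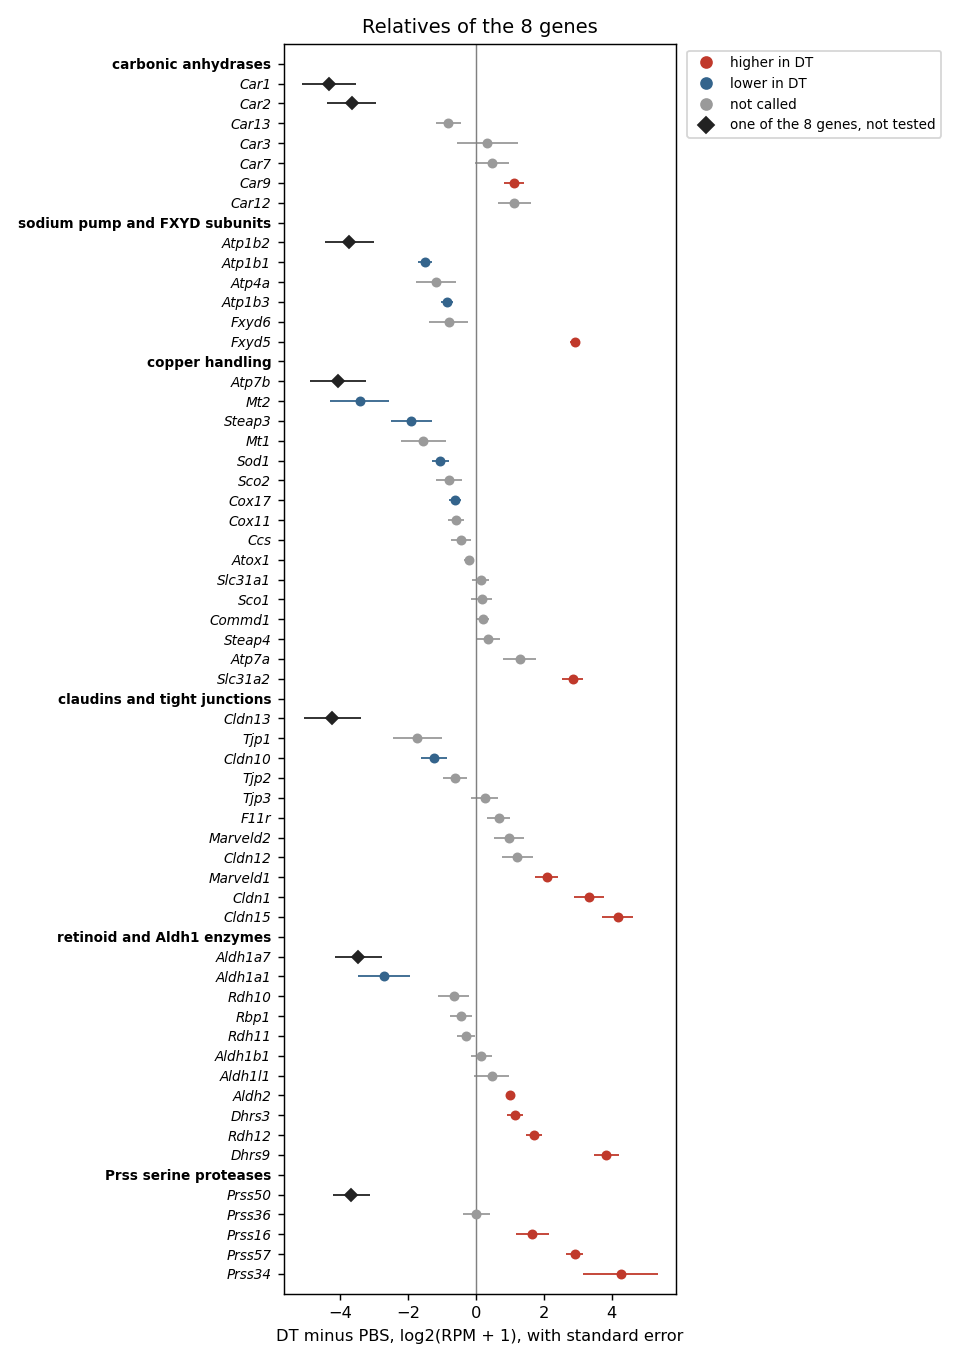
Difference of DT minus PBS on the log2(RPM + 1) scale with its standard error for genes of 6 related lists, red higher, blue lower and grey not called by limma. Black diamonds, not tested, mark the 8 genes except Epdr1, which is in none of these lists and is not drawn. In each list as drawn the genes chosen lie furthest left, and called genes of both colours stand in the sodium pump, copper, tight junction and retinoid lists.

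The position of the genes was not used in choosing them, and most of their nearest tested neighbours were not called. Car1 and Car2 lie on the same chromosome with Car3 between them, 55144 bases from Car1 and 13750 bases from Car2. Of 15 nearest tested protein-coding neighbours outside the 8, 2 fell and 1 rose, with a median log2 difference of 0.10. Of tested protein-coding genes 19.5% were called lower, and of all tested genes 13.4% higher. The neighbours are too few to set apart from these shares, so nothing about position is read from the counts. The 2 were Aldh1a1, 49488 bases from Aldh1a7, and Trp53, 7863 bases from Atp1b2, which encodes the tumour suppressor p53 and fell 1.69-fold to 206.5 ± 8.95 RPM in DT, against 348 ± 50.9 RPM in PBS (limma, adjusted p = 0.00451). Gm9733, 395781 bases from Car2, rose (adjusted p = 0.000323, limma). Alg11, which starts 416 bases from Atp7b and encodes a glycosylation enzyme, was at 42.2 ± 6.87 RPM in DT and 47.6 ± 3.72 RPM in PBS (limma, adjusted p = 0.432), and its difference of -0.18 was 0.050 under median-ratio scaling. Fxr2, on the other side of Atp1b2, was at 7.98 ± 3.17 RPM in DT and 14.4 ± 2.73 RPM in PBS, not called (limma, adjusted p = 0.0635). The other 8 neighbours, apart from Car3 and Car13, differed by -0.48 to 1.08 on the log2 scale and were not called. These 8 lay from 3177 bases (Sfrp4, beside Epdr1) to 3041810 bases (Xkr5, beside Atp7b) away.

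**Figure D5:**
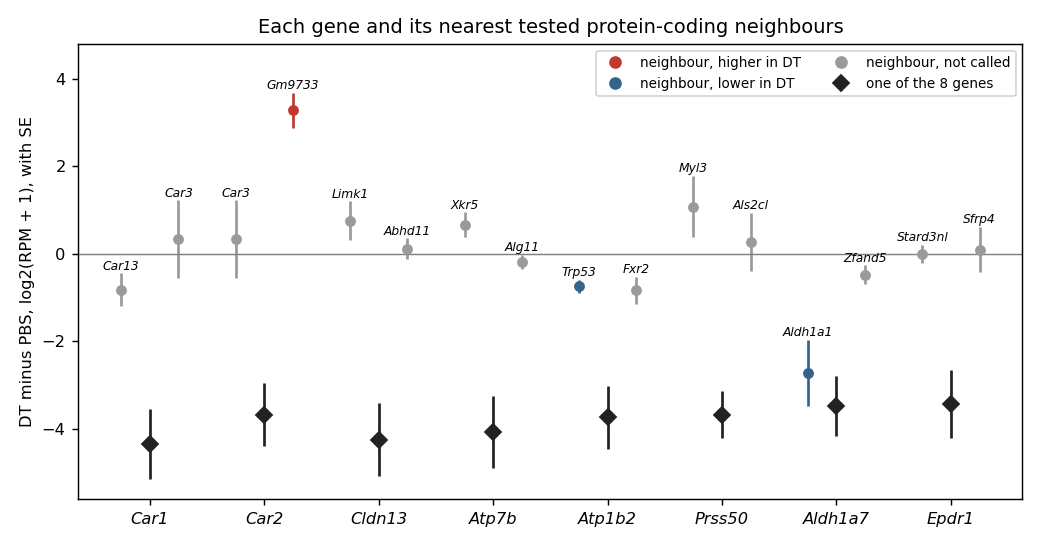
Difference of DT minus PBS on the log2(RPM + 1) scale with its standard error for the 8 genes (black) and the nearest tested protein-coding gene on either side (red higher, blue lower, grey not called by limma). Gm9733 lies at 3.28 and Aldh1a1 at -2.72, and the other neighbours between -0.84 and 1.08.

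Markers of other cells moved with the same contrast, read against the 13.4% of all tested genes called higher and 18.6% called lower. All 13 neutrophil genes rose, and their sum was 57531 to 62341 RPM in DT and 1992 to 4489.9 RPM in PBS, with Ngp 23.8-fold higher in DT. Within PBS that sum was highest in PBS 1 and lowest in PBS 2, the reverse of the 8 genes. Of 11 B lineage genes 9 fell, also with voom, with a sum of 3326 to 3773 RPM in DT and 5290.1 to 7858 RPM in PBS. Cd79a fell 1.77-fold (limma, adjusted p = 0.0105). Its call was lost under median-ratio scaling (limma, adjusted p = 0.0643) and without the filter on low values (0.0538). Of 7 tested genes of macrophages that serve erythroblasts 6 rose, among them Vcam1 18.2-fold, with a sum of 306 to 908 RPM in DT and 30.8 to 45.6 RPM in PBS. All 5 tested basophil and mast cell genes rose, with 642 to 1515 RPM in DT and 8.43 to 187.8 RPM in PBS, and Tpsb2 and Cma1 held no reads. Of 10 tested megakaryocyte and platelet genes 0 were called by limma or voom and 1 had an unadjusted p under 0.05, with 65.7 to 185 RPM in DT and 66.0 to 260.2 RPM in PBS. Of 2 tested osteoclast genes 0 were called by limma or voom and 1 had an unadjusted p under 0.05, and the list summed to 39.5 to 55.2 RPM in DT and 22.5 to 42.2 RPM in PBS. The part of these markers in the low level of the 8 genes was not tested.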

How the data were processed

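RNA of 3 DT and 4 PBS samples, labelled as biological replicates, was sequenced by the authors as single reads of 50 bases after 14 cycles of amplification from 1 ng of RNA, per the labels' protocols. Per the submitters' processing notes, Partek and STAR 2.5.3a were used with mm10. The sources used here give no annotation, strand use or settings. The deposited values are named FPKM but were read as RPM: 1033 to 1211 genes per library held the commonest low value, and their 10th and 90th length percentiles were 112 to 208.7 and 5871 to 7205 bases. Of values up to 20 steps, 60.8% to 62.8% were whole within 0.02 of a step, so no count model was used as the main test. Copies made by amplification are not independent molecules, so intervals and floors cover counting error only.

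The 14100 genes averaging 1 RPM or more over all libraries were fitted on log2(RPM + 1) with limma 3.58.1 in R 4.3.3, with an intensity trend, DT minus PBS, two-sided, Benjamini-Hochberg adjusted at 0.05. Positions come from GENCODE vM21 (mm10), which held 47486 of 50435 names; 26 rows had names turned into dates. On simulated DT against PBS data (14091 genes), the fit recovered 19.6% of 97 genes set to 2-fold changes and 98% of 99 set to 4-fold. False calls made up 5.69%. The simulation gave all genes the same dispersion and held no deviating library such as PBS 1. These rates therefore do not carry over to genes that vary within PBS as the 8 do. The 8 genes, the lists and the tests were chosen with earlier results of these data known. Named genes are the 8, up to 4 called genes per list with the smallest p, all tested carbonic anhydrases, sodium pump subunits and Aldh1 genes, nearest neighbours, the 10 most alike and the 2 most abundant of each marker list; Gm5843 was named as the gene sharing windows with Car1. Some genes of the lists are counted but not reported or drawn here. Alternatives covered pseudocount, filter, scaling, trend, weights, replicate block, voom and leaving out each library.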

Additional observations from a re-analysis of the deposited data

Results flagged for a closer look

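On the log2(RPM + 1) scale, 6 of 67 genes examined had 1 PBS library far from the other 3, measured as its gap to the nearest other library over the range of the group (limit 0.829 for 4 samples). Chance gives about 5% of independent groups such a gap. The genes here share the same 4 PBS libraries, and some were named for their likeness to the 8. The count is therefore not set against that rate. For 2 of the 8 genes described, PBS 1 was the low library: Car1 (0.839, 229.9 RPM in PBS 1) and Atp1b2 (0.851, 16.9 RPM). PBS 1 was also the low library for Mt2 (0.855, 1.86 RPM), Trim10 (0.843, 1.24 RPM), Kel (0.874, 3.71 RPM) and Col5a1 (0.836, 1.90 RPM).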

How the results depend on the processing

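The sign of the difference held for the 8 genes in all 136 recomputed values; 6 moved by more than the replicate SD, Prss50 and Aldh1a7 at -6.53 and -5.08 with a pseudocount of 0.1, -1.83 and -1.93 with 5, and -8.27 and -5.63 with voom. Their median was -4.51 without PBS 1 and -3.34 without PBS 2. The 2622 genes lower in DT became 1689 without the filter on low values, 1321 under median-ratio scaling and 1215 to 3613 on leaving out a library (1502 without DT 1, 1610 without DT 2, 1215 without DT 3). Without the filter, more genes were tested, and the lists held 0 carbonic anhydrases higher, 0 transporters higher and 2 lower, 0 copper, 0 tight junction and 0 retinoid genes lower, 1 Prss gene higher, 10 progenitor genes lower, 1 late gene higher and 0 lower, and 1 neighbour lower. With a minimum mean of 5 RPM, 0 carbonic anhydrases and 0 transporters were higher. Car9 and Slc26a6 average less than that and were not tested in this setting, so the filter fixes these counts. Median-ratio scaling gave 2 copper and 0 tight junction genes lower and 2 neighbours higher. Sample weights gave 2 transporters and 2 copper genes higher, and 2 tight junction and 7 late genes lower. With voom 2 transporters, 2 copper, 0 tight junction, 0 retinoid, 9 progenitor and 0 late genes and 1 neighbour were lower. Leaving out a library gave 0 to 1 carbonic anhydrases higher and 0 to 1 lower, 0 to 2 transporters higher, 1 to 2 copper genes higher and 1 to 6 lower, 3 to 5 tight junction genes higher and 0 to 2 lower, 0 to 1 retinoid genes lower, 1 to 3 Prss genes higher, 2 to 8 late genes lower and 1 to 3 neighbours lower. Signs turned for Alg11 (0.050 under median-ratio scaling), Car3 (-1.03 without DT 3, up to 1.21 without DT 1) and Aldh1b1 (-0.0434 without DT 3, -0.0659 without PBS 3, up to 0.38 without PBS 1). Where no construction of the setting shows it, the cause was not tested.

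The labels number the replicates. Same-numbered DT and PBS libraries deviated together only weakly (correlations 0.0419, 0.0485 and 0.0103), and pairs with unlike numbers lay between -0.0482 and 0.0484. These correlations cannot show whether same-numbered libraries were handled together, which was not tested. With the replicate block 1555 genes, 2 copper genes and 0 tight junction genes were lower. The number of libraries, and counts near 0 for Prss50 and Aldh1a7 in DT, limit the precision.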
